A study of Arabidopsis thaliana with 11 samples.

Results

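The comparison described here is the last interval of an Arabidopsis thaliana time course of floral induction, day 8 against day 4. Its members are the 3 libraries of day 8 and the 3 of day 4, 6 of the 11 libraries in the series, and every gene with at least 1 FPKM (sequenced fragments scaled by transcript length and library size) in 2 or more of these 6 libraries. Of the 20971 genes in the table, 18858 met that rule. The other libraries are 2 of day 2 and 3 of day 0.

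Plants of both days, and of the whole series, were in the Landsberg background and carried the ap1-1 and cal-1 mutations together with pAP1:AP1-GR, a fusion of the MADS-domain factor APETALA1 to the hormone-binding part of the glucocorticoid receptor, driven by the AP1 promoter. Such double mutants build up inflorescence-like meristems in place of flowers, and the fusion moves into the nucleus in the presence of dexamethasone, after which flowers form at about the same time all over the inflorescence. Day 8 inflorescences had been treated daily for 8 days and day 4 inflorescences for 4 days, day 0 material was taken before treatment, and per the methods each library was a pool of 5 inflorescences. The concentration of dexamethasone is stated as 2 mM in the sample labels, 1 uM in the series design and 2 uM in the methods. No untreated library was taken after day 0, so that days of treatment, age and floral stage cannot be told apart. The fusion is active where the AP1 promoter is, and the table has 1 row for AP1, in which transcripts of the transgene and of the mutant gene cannot be told apart.

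Between these days the floral buds pass out of the phase in which whorls are laid down and into that in which sepals, petals, stamens and carpels grow and differentiate. As background, meristems are kept by homeodomain factors such as WUSCHEL and SHOOT MERISTEMLESS, creases between organs are set by CUP-SHAPED COTYLEDON factors, and organs first grow by division and then by expansion of cells. Jasmonate, a lipid-derived hormone, is made in plastids and peroxisomes, acts by the removal of JAZ repressors from MYC factors, and is known in flowers for stamen maturation and petal growth and in all shoots for the response to wounding.

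Values of single libraries are given in the order of replicates 1, 2 and 3. Differences are on the log2(FPKM + 1) scale, day 8 minus day 4, with the standard error of the limma fit, and adding 1 FPKM understates the change of weakly expressed genes. A gene is said to have risen or fallen where its adjusted p in that fit was under 0.05 and the change at least 2-fold in FPKM + 1. The columns had been brought to 1 common distribution before deposit, so that read depth is unknown and a value is a rank-like level relative to the other genes. The day 8 libraries spread more widely than those of day 4. Their pooled SD over genes was 0.339 on the log2 scale against 0.162 on day 4, and their correlations with each other ran between 0.961 and 0.971, against 0.991 and 0.993 for day 4. The p-values measure the spread between pooled libraries, and nothing in the labels says that the pools came from separate sowings.

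Rises were larger than falls. A total of 2376 genes rose (12.6% of those tested) and 2107 fell (11.2%), 4483 in all (23.8%), and the 3 values of day 8 did not overlap those of day 4 for 72.5% of the genes tested. Changes of at least 8-fold were nearly all rises, 467 against 19 falls. The risen genes took up 24.1% to 30.4% of all FPKM in the day 8 libraries, against 4.94% to 5.64% in those of day 4, while the fallen genes took up 6.22% to 7.55% on day 8 and 17.5% to 18.8% on day 4. All libraries have nearly the same total, and the median change over all genes was -0.18. When the 6 libraries were rescaled by median ratios the median was -0.01, and the counts became 2738 risen and 1504 fallen, so that rises made up 64.5% of the calls in place of 53.0%. A list median is therefore best read against -0.18. Of the risen genes, 444 were below 1 FPKM in all 3 libraries of day 4, and 265 of the fallen ones were so on day 8. As the libraries are of whole inflorescences, fewer cells of a type and less RNA per cell cannot be told apart.

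**Figure D1:**
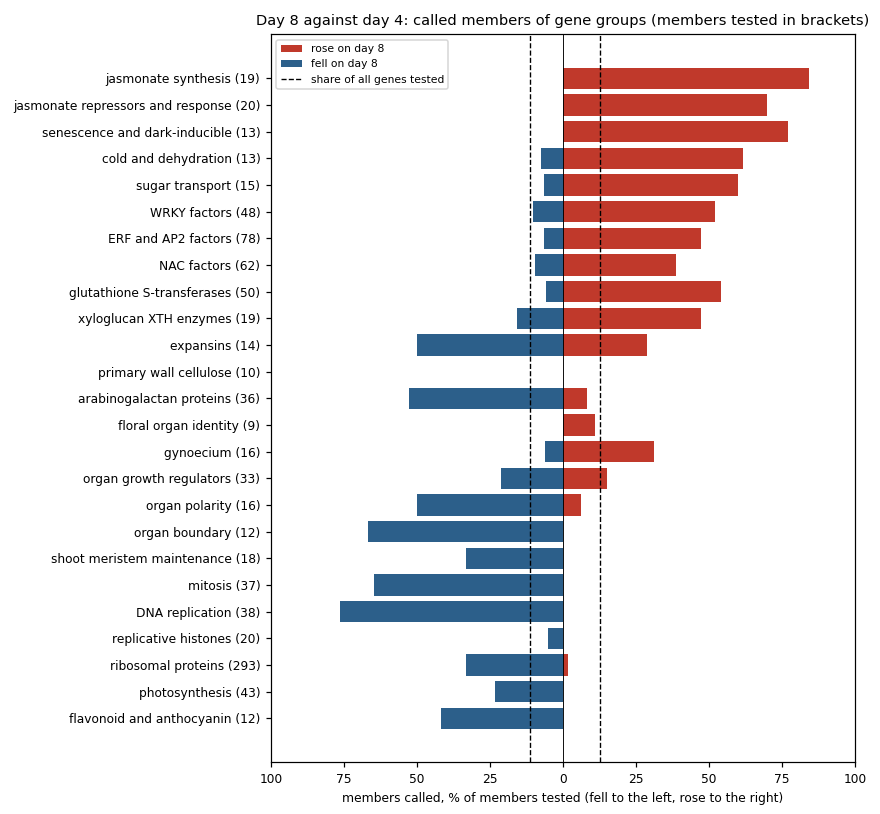
Share of tested members of 25 gene groups that rose (right) or fell (left) on day 8 against day 4, in percent, with the number of members tested in brackets and dashed lines at the share of all 18858 genes (12.6% rose, 11.2% fell). Jasmonate, senescence, sugar and WRKY groups lie far to the right, and DNA replication, mitosis and organ boundary genes far to the left.

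Among groups of at least 10 tested genes, the largest shares of risen members were in jasmonate synthesis (84.2%), senescence and dark-inducible genes (76.9%), jasmonate repressors and response (70%), cold and dehydration (61.5%) and sugar transport (60%). The largest shares of fallen members were in DNA replication (76.3%), organ boundary (66.7%), mitosis (64.9%), arabinogalactan proteins (52.8%), and organ polarity and expansins (50% each). Known regulators and enzymes of organ growth moved in both directions. By its leading groups the interval thus holds more than organ growth.

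The largest rise was that of RAP2.6, an ERF-type transcription factor known to respond to jasmonate and wounding. It lies at chr1:16263805-16264945 (RefSeq annotation of TAIR10.1) and had 1407, 1365 and 763 FPKM on day 8, against 0.03, 1.57 and 0.284 FPKM on day 4 (log2 change 9.56 ± 0.37, adjusted p = 1.34e-05). AT2G44130, the kelch-repeat F-box gene KMD3, had 548, 728 and 432 FPKM on day 8 and was listed at 0 in all 3 day 4 libraries. No library of day 4 held more than 1.57 FPKM of either, and none of day 8 less than 432 FPKM. As AT2G44130 was listed at 0 on day 4, its change on the log2(FPKM + 1) scale depends on the added 1 FPKM and is not given. Among the 15 largest rises with non-overlapping libraries and at least 5 FPKM on the higher day were 2 allene oxide cyclases of jasmonate synthesis (AOC2 and AOC1), 4 oxygenases of the 2-oxoglutarate type (JRG21, DIN11, AT5G05600 and AT2G38240), the acetyltransferase NATA1, the NAC factor NAC3, the nitrilase NIT2, the glutathione S-transferase GSTU6 and the phloem gene NAKR1. JRG21, whose name stands for jasmonate-regulated gene, had 361, 258 and 139 FPKM on day 8, against 0.315, 0.305 and 0.0918 FPKM on day 4 (log2 change 7.58 ± 0.32). AT2G32150, a haloacid dehalogenase-like hydrolase, had 759, 1278 and 1185 FPKM on day 8, against 12.9, 18.5 and 5.96 FPKM on day 4 (log2 change 6.41 ± 0.38). The remaining member, AT5G19230, annotated as a membrane glycoprotein, had 76.8, 302 and 155 FPKM on day 8, against 1.11, 0.456 and 0.203 FPKM on day 4. AT2G44130, NAKR1 and GSTU6 each overlap a neighbouring gene (AT2G44140, AT5G02590 and AT2G29430) in the RefSeq annotation, and whether the counting used strand is not stated, so their reads may in part belong to the neighbour.

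The largest falls were of other kinds. WOX4, a homeodomain factor that maintains vascular cambium, had 0.14, 0.35 and 0.738 FPKM on day 8, against 20.4, 15.7 and 20.4 FPKM on day 4 (log2 change -3.83 ± 0.20, adjusted p = 2.19e-05). Its known upstream receptor kinase PXY, looked at after the values were seen, had 12.0, 10.2 and 14.5 FPKM on day 8, against 45.3, 44.2 and 41 FPKM on day 4 (log2 change -1.76 ± 0.13). RL4, a small RADIALIS-like MYB, had 0.183, 0.298 and 0.154 FPKM on day 8, against 18.1, 21 and 18.3 FPKM on day 4 (log2 change -4.05 ± 0.13). The germin GER3 had 5.24, 8.05 and 5.18 FPKM on day 8, against 151, 84.4 and 153 FPKM on day 4 (log2 change -4.16 ± 0.26). Libraries without overlap were part of how the largest falls were chosen, PXY aside, and 2105 of all 2107 fallen genes had them. Also in this group were 3 cell wall or cuticle genes, the pectate lyase AT1G67750 (log2 change -3.82 ± 0.24), the pectin methylesterase inhibitor AT1G23205 (log2 change -3.46 ± 0.29) and the midchain alkane hydroxylase CYP96A15 of wax synthesis (log2 change -3.17 ± 0.19). RBCS1B, a small subunit of Rubisco that shares reads with near-identical copies, fell by 4.25 on the log2 scale. The other members are poorly described genes, led by AT5G59305 with 0.0927, 0.765 and 0.618 FPKM on day 8, against 26.7, 35.0 and 24.6 FPKM on day 4 (log2 change -4.33 ± 0.22), with AT3G59270, AT4G28310, CPuORF30, AT5G55330, AT1G15760, AT1G61930 and AT1G03820 at log2 changes between -3.91 (AT3G59270) and -3.29 (AT1G03820). AT4G28310 overlaps AT4G28320. CPuORF30 is annotated as a conserved peptide upstream open reading frame and was not checked for overlap. Its reads may therefore belong to another gene.

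Jasmonate synthesis showed the most uniform rise. Of 19 tested genes of the pathway and its turnover 16 rose and none fell, with a median change of 2.80. Along the path, the lipase gene DAD1, which frees the fatty acid precursor in anthers, had 7.11, 4.74 and 1.94 FPKM on day 8, against 0, 0.108 and 0 FPKM on day 4 (log2 change 2.32 ± 0.35). The 13-lipoxygenase LOX3 had 287, 191 and 74.7 FPKM on day 8, against 3.5, 4.09 and 3.36 FPKM on day 4 (log2 change 5.12 ± 0.43), and LOX2, LOX4 and LOX6 also rose. Of these LOX2 varied most on day 4, with 281, 209 and 209 FPKM on day 8, against 58.9, 12.9 and 20.9 FPKM on day 4. AOS, the allene oxide synthase that makes the first committed intermediate, had 154, 149 and 76.9 FPKM on day 8, against 19.0, 18.5 and 14.3 FPKM on day 4 (log2 change 2.75 ± 0.27, adjusted p = 0.000161). The genes of the first steps thus rose, and DAD1 was listed at 0 in 2 of the 3 day 4 libraries.

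The next enzyme, allene oxide cyclase, has 4 genes in Arabidopsis. AOC2 had 736, 759 and 262 FPKM on day 8, against 0.987, 2.88 and 0.9 FPKM on day 4 (log2 change 7.75 ± 0.45), AOC1 181, 215 and 80.8 FPKM on day 8, against 0.296, 0.315 and 0.0918 FPKM on day 4 (log2 change 6.91 ± 0.34), and AOC3 672, 777 and 258 FPKM on day 8, against 16.9, 15.4 and 11.6 FPKM on day 4 (log2 change 5.06 ± 0.39). AOC4 had 92.5, 74.0 and 103 FPKM on day 8, against 70.7, 68.4 and 72.3 FPKM on day 4, and its log2 change of 0.34 ± 0.13 missed the 2-fold minimum. The first 3 lie side by side in the genome and are similar in sequence, so reads may be split between them. The reductase OPR3, which completes the cyclised precursor, had 271, 233 and 145 FPKM on day 8, against 44.6, 38.6 and 38.9 FPKM on day 4 (log2 change 2.34 ± 0.22), and the peroxisomal enzymes OPCL1 and ACX1 rose by 2.82 and 1.64 on the log2 scale. JAR1, which joins jasmonate to isoleucine to form the active hormone, had 53.4, 44.6 and 29.0 FPKM on day 8, against 11.9, 10.7 and 12.8 FPKM on day 4 (log2 change 1.72 ± 0.21). Genes that take the hormone away rose with those that make it. CYP94B3, which oxidises the active conjugate, had 98, 90.3 and 34.3 FPKM on day 8, against 0.116, 0.514 and 0.284 FPKM on day 4 (log2 change 5.72 ± 0.38), CYP94C1 rose by 2.80 on the log2 scale, and the sulfotransferase ST2A had 81.2, 72.8 and 17.9 FPKM on day 8, against 0.221, 0.185 and 0.104 FPKM on day 4 (log2 change 5.38 ± 0.52). The 2 members besides AOC4 that were not called are the acyl-CoA oxidase ACX5, with a log2 change of 0.14 ± 0.10, and the lipase gene DGL, with 1.02, 1.75 and 0.319 FPKM on day 8, against 0.0555, 0.0545 and 0 FPKM on day 4. DGL passed as risen without day 8 replicate 3 (1.19) and with 0.1 FPKM added in place of 1 (2.83), so that its missing call depends on the added FPKM.

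Repressors and transcription factors of the response rose as widely, 14 of 20 tested, with none fallen and a median of 2.64. Of 12 tested JAZ repressor genes 11 rose, among them JAZ8 with 86.6, 98.4 and 35.0 FPKM on day 8, against 0.437, 0.489 and 0.194 FPKM on day 4 (log2 change 5.63 ± 0.36, adjusted p = 4.08e-05), JAZ7 with 115, 104 and 25.5 FPKM on day 8, against 1.14, 1.1 and 1.28 FPKM on day 4 (log2 change 4.98 ± 0.52), JAZ1 with 967, 809.9 and 382 FPKM on day 8, against 37.3, 20.0 and 20.3 FPKM on day 4 (log2 change 4.70 ± 0.38) and JAZ9 with 1446, 1022 and 816 FPKM on day 8, against 65.8, 59.3 and 32.5 FPKM on day 4 (log2 change 4.38 ± 0.30). JAZ9 reached at least 816 FPKM in every day 8 library. JAZ11 had 24.7, 31.4 and 38.1 FPKM on day 8, against 38.3, 34.1 and 40.7 FPKM on day 4, with no call. The master regulator MYC2 had 329, 227 and 153 FPKM on day 8, against 35.8, 31.7 and 27.5 FPKM on day 4 (log2 change 2.80 ± 0.26), whereas its relatives MYC3 (log2 change 0.65 ± 0.15) and MYC4 (log2 change 0.25 ± 0.15) and the receptor COI1 (log2 change 0.24 ± 0.10) were not called. MYB21 and MYB108, factors of stamen and petal maturation downstream of the hormone, also rose: MYB108 had 27.3, 36.7 and 9.45 FPKM on day 8, against 0.255, 0.175 and 0.553 FPKM on day 4 (log2 change 4.08 ± 0.44). MYB21 had 2.05, 6.81 and 0.99 FPKM on day 8 and was listed at 0 in all day 4 libraries. The classical output genes VSP1 and VSP2, which encode vegetative storage proteins, went with neither group. VSP2 had 538, 142 and 467 FPKM on day 8, against 228, 228 and 199.8 FPKM on day 4, and VSP1 1129, 668 and 943 FPKM on day 8, against 1037, 799 and 525 FPKM on day 4, the days overlapping for both. VSP2 passed as risen only without day 8 replicate 2 (1.2), and JAZ13 had 7.60, 6.57 and 0.476 FPKM on day 8 and was listed at 0 on day 4.

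MYC factors bind the G-box, CACGTG, and the promoters of the members with the largest rise that hold one in the 250 bases before the gene start are shown for that reason, with the G-box in capitals, from RefSeq's TAIR10.1 sequence, each 5′ to 3′ on the strand of the gene. JAZ8 lies on the plus strand at chr1:10596102-10596351, JAZ7 on the plus strand at chr2:14572780-14573029 and JAZ2 on the minus strand at chr1:28150447-28150696.
JAZ8: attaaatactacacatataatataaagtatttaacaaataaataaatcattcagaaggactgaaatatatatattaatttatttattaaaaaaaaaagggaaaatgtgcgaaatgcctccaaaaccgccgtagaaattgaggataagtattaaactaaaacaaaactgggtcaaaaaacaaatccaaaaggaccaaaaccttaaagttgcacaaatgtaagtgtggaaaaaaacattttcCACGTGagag
JAZ7: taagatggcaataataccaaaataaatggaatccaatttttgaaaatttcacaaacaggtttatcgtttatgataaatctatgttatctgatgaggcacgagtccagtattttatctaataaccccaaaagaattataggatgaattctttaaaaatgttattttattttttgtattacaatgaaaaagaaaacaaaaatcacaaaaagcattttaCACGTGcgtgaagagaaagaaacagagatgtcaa
JAZ2: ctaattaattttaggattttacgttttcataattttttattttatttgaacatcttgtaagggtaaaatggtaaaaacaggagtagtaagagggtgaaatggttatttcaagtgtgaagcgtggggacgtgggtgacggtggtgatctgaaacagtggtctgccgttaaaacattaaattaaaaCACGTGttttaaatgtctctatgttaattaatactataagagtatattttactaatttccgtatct
The G-box reads the same on both strands. In windows of 300 bases (250 before to 50 after the start) it was found in 5 of the 14 risen response genes (35.7%), in 2 of the 16 risen synthesis genes (12.5%), in 12.5% of all risen genes and in 9.01% of the 18321 tested genes with a window. Over all tested genes of the response and synthesis lists the G-box was found in 5 of 20 (25%) and 2 of 19 (10.5%). A match is a description of the letters and does not show binding.

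**Figure D2:**
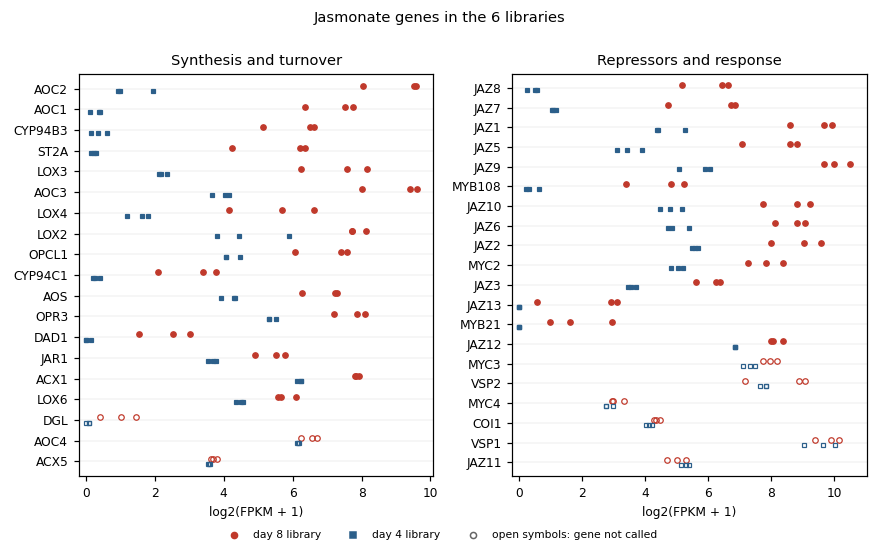
Each row is a gene of jasmonate synthesis and turnover (left, 19 genes) or of jasmonate repression and response (right, 20 genes), and each symbol its log2(FPKM + 1) in 1 library, with day 8 as circles drawn above day 4 as squares and open symbols for genes not called. For every called gene the 3 day 8 values lie to the right of all day 4 values, and 1 of the day 8 values often lies to the left of the other 2. Libraries of the 2 days did not overlap in 2365 of all 2376 risen genes.

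That low value is replicate 3 in most cases. Day 8 replicate 3 was the lowest of its day in all 14 risen response genes and in 14 of the 16 risen synthesis genes, against 1497 of all 2376 risen genes. Without it 14 response and 17 synthesis genes rose. In AOC2, JAZ8 and MYC2 its value was still above every day 4 value, by the values given above.

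Genes of senescence and darkness rose together with those of sugar transport. Of 13 tested senescence and dark-inducible genes 10 rose and none fell, with a median of 2.66. DIN6, the asparagine synthetase of dark-grown tissue, had 100.9, 201 and 280.3 FPKM on day 8, against 1.24, 3.68 and 0.446 FPKM on day 4 (log2 change 6.18 ± 0.49). ORE1 and NAP, NAC factors that promote leaf senescence, had 69.7, 66.5 and 55.1 FPKM on day 8, against 0.678, 0.526 and 1.24 FPKM on day 4 (log2 change 5.17 ± 0.17, adjusted p = 1.05e-05) and 61.3, 59.1 and 85.0 FPKM on day 8, against 1.3, 3.49 and 1.54 FPKM on day 4 (log2 change 4.53 ± 0.27). None of these 3 exceeded 3.68 FPKM in any day 4 library. SAG21 (log2 change 4.64 ± 0.29), DIN10 (log2 change 4.30 ± 0.54) and DIN1 (log2 change 5.80 ± 0.97) rose as well. SGR1 and PAO, which act in chlorophyll breakdown, had log2 changes of 0.94 ± 0.14 and 0.69 ± 0.12 and stayed under the 2-fold minimum, and the nuclease BFN1 had 3.05, 0.98 and 0.894 FPKM on day 8, against 1.34, 1.48 and 1.73 FPKM on day 4. Its NAC factors and dark-inducible genes thus rose, while none of these 3 genes of chlorophyll and nucleic acid breakdown passed the threshold. SGR1 passed it without day 4 replicate 3 (1.01) and under median-ratio scaling (1.096). It also passed with 0.1 FPKM (1.09) or 1e-06 FPKM (1.11) added in place of 1, so that the missing call of SGR1 depends on these settings. DIN1 had 215, 576 and 853 FPKM on day 8, against 5.90, 37.1 and 1.35 FPKM on day 4, the day 4 libraries differing widely, with replicate 2 the highest.

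The 3 risen genes most abundant on day 8 were looked at after the values were seen. AT3G15450, annotated as aluminium-induced, had 4498, 4498 and 9736 FPKM on day 8, against 229.9, 943 and 304 FPKM on day 4 (log2 change 3.85 ± 0.56). J8, a chloroplast DnaJ protein, had 3114, 3114 and 4498 FPKM on day 8, against 153, 473 and 189 FPKM on day 4 (log2 change 3.87 ± 0.41). ERD15, an early dehydration-induced gene, had 2829.7, 2582 and 1879 FPKM on day 8, against 374, 558 and 411 FPKM on day 4 (log2 change 2.44 ± 0.23). Repeated values such as 4498 stem from the common distribution to which the columns were brought, in which equal ranks share 1 value.

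In sugar transport 9 of 15 tested genes rose and 1 fell. STP13, a plasma membrane hexose carrier, had 89.3, 175 and 75.2 FPKM on day 8, against 4.1, 1.89 and 2.09 FPKM on day 4 (log2 change 4.90 ± 0.34, adjusted p = 5.21e-05), the cell wall invertase CWINV1 had 47.5, 89.1 and 66.4 FPKM on day 8, against 5.02, 2.91 and 3.54 FPKM on day 4 (log2 change 3.81 ± 0.25), and the sucrose exporters SWEET12 and SWEET11 rose by 3.31 and 1.90 on the log2 scale. SWEET10 alone fell, with 1.66, 1.83 and 9.67 FPKM on day 8, against 14.9, 27.3 and 22 FPKM on day 4 (log2 change -2.34 ± 0.53). The phloem loader SUC2 had a log2 change of -0.35 ± 0.17 and was not called. In cold and dehydration 8 of 13 rose and 1 fell, with a median of 1.46: the dehydrin LTI30 had 63.7, 112 and 76.4 FPKM on day 8, against 0.727, 5.37 and 5.13 FPKM on day 4 (log2 change 4.35 ± 0.50), RD29A 40.3, 28.3 and 17.0 FPKM on day 8, against 1.33, 3.63 and 2.75 FPKM on day 4 (log2 change 3.03 ± 0.35) and ERD10 719, 606 and 525 FPKM on day 8, against 125, 157 and 140.4 FPKM on day 4 (log2 change 2.12 ± 0.15), while the upstream factor CBF3 had 0.544, 0.384 and 0.265 FPKM on day 8, against 1.57, 1.98 and 2.88 FPKM on day 4 (log2 change -1.15 ± 0.20). The targets and a factor known to switch them on in the cold thus went opposite ways, the call for CBF3 being lost without day 4 replicate 3 (-0.99). Of 15 heat shock genes 4 rose, led by the factor HSFB2A with 41.5, 42.7 and 21.9 FPKM on day 8, against 3.48, 3.70 and 3.36 FPKM on day 4.

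Among transcription factor families 3 stood out by their counts: 25 of 48 tested WRKY genes, 37 of 78 ERF and AP2 genes and 24 of 62 NAC genes rose, with 5, 5 and 6 fallen. The examples that follow were picked after the values were seen. WRKY40, a factor of defence responses, had 329, 432 and 115 FPKM on day 8, against 5.68, 6.27 and 2.60 FPKM on day 4 (log2 change 5.51 ± 0.50). WRKY75, a factor of senescence and phosphate starvation, had 47.6, 85.6 and 24.9 FPKM on day 8, against 0.577, 0.0545 and 0.849 FPKM on day 4 (log2 change 5.04 ± 0.43). ERF1, which joins ethylene and jasmonate responses, had 51.0, 71.9 and 25.8 FPKM on day 8, against 0.805, 0.215 and 0.0664 FPKM on day 4 (log2 change 5.14 ± 0.37). RD26 and NAC019, stress-induced NAC factors, had 486, 643 and 272 FPKM on day 8, against 4.82, 5.18 and 4.08 FPKM on day 4 (log2 change 6.28 ± 0.29) and 232, 273 and 124 FPKM on day 8, against 2.95, 1.03 and 1.44 FPKM on day 4 (log2 change 6.21 ± 0.34). MYB genes followed with 20 risen and 9 fallen of 58, and bHLH genes were split 18 to 16 of 84. Of 34 MADS-box genes, which hold most floral identity factors, 2 rose and 6 fell. Day 8 replicate 3 was again the lowest of its day in 18 of the 25 risen WRKY genes, in 31 of the 37 ERF and AP2 genes and in 20 of the 24 NAC genes.

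Enzymes of detoxification and phenolic metabolism rose as well. Of 50 tested glutathione S-transferases, a family added after the values were seen, 27 rose and 3 fell, and of 87 UDP-glycosyltransferases 34 rose and 6 fell. GSTF2 had 971, 2829.7 and 1494 FPKM on day 8, against 90.2, 38.0 and 92.5 FPKM on day 4 (log2 change 4.53 ± 0.46) and GSTU5 1037, 1149 and 536 FPKM on day 8, against 37.8, 30.4 and 37.8 FPKM on day 4 (log2 change 4.58 ± 0.28). Of 24 peroxidases 12 rose and 3 fell. PRX52, which takes part in lignin formation, had 26.8, 90.4 and 22.6 FPKM on day 8, against 0.425, 0.315 and 1.52 FPKM on day 4 (log2 change 4.54 ± 0.52), while the abundant PRXR1 had 434, 324 and 752 FPKM on day 8, against 1494, 1648 and 1446 FPKM on day 4 (log2 change -1.69 ± 0.29). In phenylpropanoid and lignin synthesis 6 of 16 rose and 2 fell. PAL1, the entry enzyme, had 84.2, 223 and 90.9 FPKM on day 8, against 21.7, 12.6 and 17.5 FPKM on day 4 (log2 change 2.76 ± 0.37), CAD5, of the last step to lignin alcohols, 108, 156 and 88.6 FPKM on day 8, against 16.4, 15.5 and 16.8 FPKM on day 4 (log2 change 2.74 ± 0.19), and CAD4, its close relative, fell to 21.9, 18.5 and 20.4 FPKM on day 8, against 43.2, 38.4 and 45.6 FPKM on day 4. The fall of CAD4 was lost without day 8 replicate 2 (-0.97) or day 4 replicate 3 (-0.98). Day 8 replicate 2 was the highest of its day in 12 of 12 risen peroxidases, in 26 of 34 glycosyltransferases and in 6 of 6 phenylpropanoid genes, against 1426 of all 2376 risen genes.

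Flavonoid genes, which branch from the same pathway, gave falls and no rise. Of 12 tested 5 fell. The chalcone synthase TT4, the first enzyme of the branch, had 49.8, 30.5 and 17.0 FPKM on day 8, against 229, 199 and 298 FPKM on day 4 (log2 change -2.97 ± 0.35). The flavonol synthase FLS1 had 38.1, 26.3 and 11.4 FPKM on day 8, against 131, 124 and 147 FPKM on day 4 (log2 change -2.51 ± 0.37). F3H and TT5 fell by 2.08 and 2.05 on the log2 scale, together with the flavonol regulator MYB11, which had 2.49, 2.56 and 0.99 FPKM on day 8, against 13.3, 10.9 and 14 FPKM on day 4 (log2 change -2.23 ± 0.24). In all 5 the lowest library was day 8 replicate 3.

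DNA replication showed the widest fall. Of 38 tested genes 29 fell and none rose, with a median of -1.37 and a highest value of -0.04. PCNA1, the sliding clamp of the replication fork, had 5.38, 6.33 and 5.04 FPKM on day 8, against 48.5, 43.4 and 51.2 FPKM on day 4 (log2 change -2.89 ± 0.12, adjusted p = 1.34e-05). The origin recognition subunit ORC2 had 0.57, 0.612 and 0.664 FPKM on day 8, against 6.28, 5.93 and 6.16 FPKM on day 4 (log2 change -2.14 ± 0.13). The loading factor CDC6 had 0.655, 0.713 and 1.01 FPKM on day 8, against 5.42, 4.94 and 5.58 FPKM on day 4 (log2 change -1.82 ± 0.15). On day 8 ORC2 was under 1 FPKM in every library. All 6 genes of the MCM2 to MCM7 helicase fell, between -1.81 (MCM2) and -1.33 (MCM4). MCM2 had 12.3, 9.13 and 7.97 FPKM on day 8, against 37.6, 33.6 and 38.3 FPKM on day 4 (log2 change -1.81 ± 0.15). The D-type cyclin CYCD3;1, which drives entry into the cycle, had 40.7, 29.8 and 40.0 FPKM on day 8, against 129, 121 and 123 FPKM on day 4 (log2 change -1.74 ± 0.13). The S-phase activator E2FA had 6.15, 7.21 and 5.34 FPKM on day 8, against 18.7, 14.9 and 18.7 FPKM on day 4 (log2 change -1.35 ± 0.14). FAS1 and FAS2, of the chromatin assembly factor behind the fork, fell by 1.53 and 1.46 on the log2 scale. The polymerase subunits POLD2 (log2 change -0.47 ± 0.09) and POL2A (log2 change -0.27 ± 0.16) and the small ribonucleotide reductase subunit RNR2A (log2 change -0.04 ± 0.08) were among the 9 not called.

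E2F factors bind TTTCCCGC, TTTGGCGC, TTTGCCGC or TTTCGCGC, and the promoters with the largest falls that hold such a site in the 250 bases before the start are shown, with the matches on either strand in capitals, from RefSeq's TAIR10.1 and on the strand of the gene. ORC2 lies on the plus strand at chr2:15758351-15758600, MCM2 on the plus strand at chr1:16969964-16970213 and MCM3 on the minus strand at chr5:18773707-18773956.
ORC2: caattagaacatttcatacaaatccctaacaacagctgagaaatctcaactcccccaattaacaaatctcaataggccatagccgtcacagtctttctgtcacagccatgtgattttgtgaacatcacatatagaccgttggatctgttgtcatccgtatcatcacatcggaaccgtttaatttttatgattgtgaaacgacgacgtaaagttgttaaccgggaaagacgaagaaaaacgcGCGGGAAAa
MCM2: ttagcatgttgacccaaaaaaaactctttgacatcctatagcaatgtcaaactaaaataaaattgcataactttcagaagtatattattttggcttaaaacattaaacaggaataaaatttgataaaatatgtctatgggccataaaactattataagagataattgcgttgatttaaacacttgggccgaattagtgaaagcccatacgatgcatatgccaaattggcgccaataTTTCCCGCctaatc
MCM3: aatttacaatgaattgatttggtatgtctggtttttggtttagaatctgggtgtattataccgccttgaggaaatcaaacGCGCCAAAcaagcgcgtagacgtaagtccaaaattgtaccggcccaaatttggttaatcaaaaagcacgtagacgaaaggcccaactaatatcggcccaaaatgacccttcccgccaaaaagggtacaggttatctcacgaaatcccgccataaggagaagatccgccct
In ORC2 and MCM2 the match begins 9 and 14 bases before the start. With both strands searched in windows of 300 bases, 15 of the 29 fallen replication genes held a match (51.7%). The share was 4.39% of all fallen genes, 0.814% of all risen genes and 1.95% of all tested genes with a window. Of all 38 tested replication genes 17 held a match (44.7%), close to the share among the fallen ones.

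Mitosis followed. Of 37 tested genes 24 fell and none rose, with a median of -1.17 and every member below 0. CYCA1;1 had 5.92, 3.0 and 6.66 FPKM on day 8, against 36.4, 33.2 and 34.4 FPKM on day 4 (log2 change -2.58 ± 0.23), and the B-type cyclin CYCB1;4, which is made just before mitosis, had 9.79, 6.6 and 12.2 FPKM on day 8, against 36.2, 35.3 and 32.4 FPKM on day 4 (log2 change -1.80 ± 0.19). The mitotic kinases AUR1, AUR2, CDKB1;1, CDKB1;2 and CDKB2;1 fell by 1.5, 1.74, 1.19, 1.66 and 1.45 on the log2 scale. BUBR1, of the spindle checkpoint, had 10.2, 8.14 and 12.0 FPKM on day 8, against 39.7, 35.8 and 35.1 FPKM on day 4 (log2 change -1.78 ± 0.14). KNOLLE (KN), the syntaxin of the forming cell plate, had 63.3, 52.7 and 75.8 FPKM on day 8, against 151, 144 and 134 FPKM on day 4 (log2 change -1.16 ± 0.14), and the spindle midzone protein PLE 15.9, 11.4 and 18.0 FPKM on day 8, against 53.1, 51.1 and 51.2 FPKM on day 4 (log2 change -1.73 ± 0.16). CDC20.1 and CDC20.2, adjacent near-copies that may share reads, fell by 1.52 and 1.77 on the log2 scale. The activator MYB3R4 fell by 1.05 on the log2 scale, a call lost without day 8 replicate 2 (-0.92), while MYB3R1 had a log2 change of -0.38 ± 0.10. Of 36 kinesins 13 fell and none rose, and of 16 tubulins 4 fell.

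MYB3R factors bind a site that can hold CCAACGG, and only these letters were searched, so other forms of the site were not counted. Shown are 2 cyclin promoters that hold them within 250 bases before the start, with matches on either strand in capitals, from RefSeq's TAIR10.1. CYCB1;3, with 3.69, 3.75 and 5.54 FPKM on day 8, against 14, 14 and 13.8 FPKM on day 4, lies on the minus strand at chr3:3627274-3627523, and CYCB1;2, with 22.6, 14.8 and 25.1 FPKM on day 8, against 61.3, 57.0 and 54.9 FPKM on day 4, on the minus strand at chr5:1861704-1861953.
CYCB1;3: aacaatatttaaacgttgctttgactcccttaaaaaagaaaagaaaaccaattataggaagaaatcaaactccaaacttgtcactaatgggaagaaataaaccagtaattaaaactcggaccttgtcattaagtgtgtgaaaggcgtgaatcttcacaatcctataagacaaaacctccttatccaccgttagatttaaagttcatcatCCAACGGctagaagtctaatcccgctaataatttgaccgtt
CYCB1;2: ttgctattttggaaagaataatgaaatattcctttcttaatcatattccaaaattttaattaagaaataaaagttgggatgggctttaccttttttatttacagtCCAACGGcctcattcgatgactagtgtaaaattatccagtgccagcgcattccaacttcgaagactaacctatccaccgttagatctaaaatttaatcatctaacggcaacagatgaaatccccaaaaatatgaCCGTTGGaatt
CCAACGG was found on either strand in 7 of the 24 fallen mitosis genes (29.2%). It was found in 8 of all 37 tested mitosis genes (21.6%) and in 2.25% of all tested genes with a window. No E2F site was found in the windows of the 37 mitosis genes, and CCAACGG in 1 of those of the 38 replication genes.

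**Figure D3:**
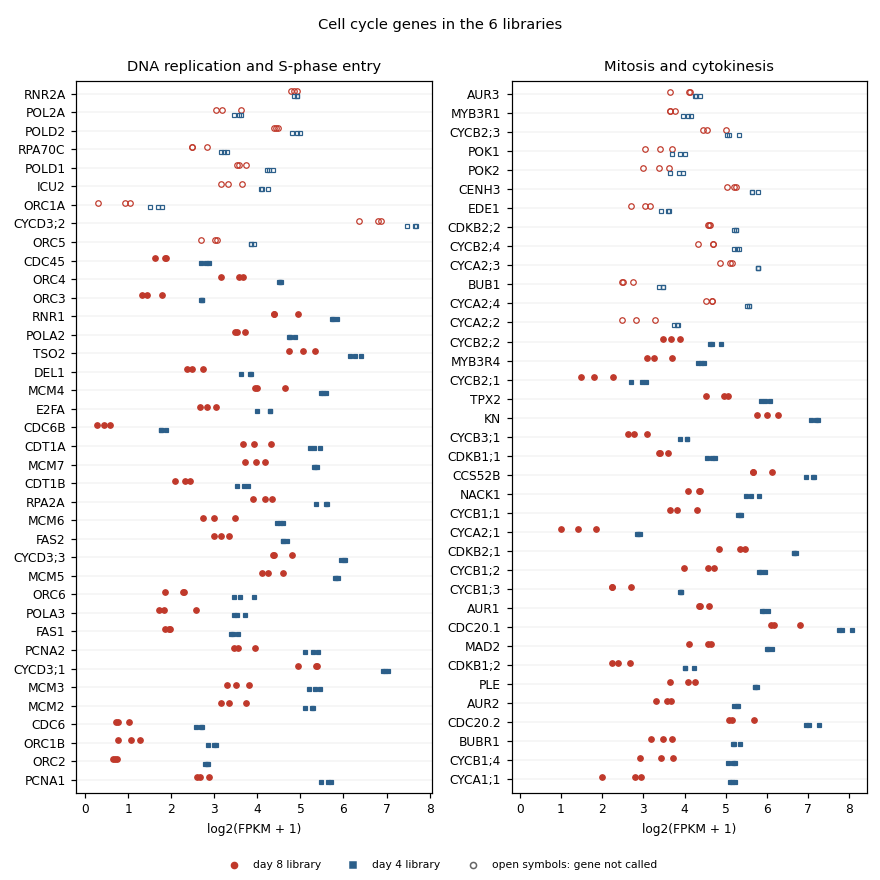
Each row is a gene of DNA replication and entry into S phase (left, 38 genes) or of mitosis and cytokinesis (right, 37 genes), and each symbol its log2(FPKM + 1) in 1 library, with day 8 as circles above day 4 as squares and open symbols for genes not called. The day 8 values of the 53 fallen genes all lie to the left of their day 4 values, with log2 changes between -2.89 and -1.01. Libraries of the 2 days did not overlap in 2105 of all 2107 fallen genes.

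The libraries of day 8 were not ordered alike in the 2 lists. Replicate 3 had the highest value of its day in 19 of the 24 fallen mitosis genes, whereas it had the lowest in 17 of the 29 fallen replication genes. Over all 2107 fallen genes it was the highest in 1169 and the lowest in 265. Without day 8 replicate 2 the counts were 29 and 20, and under median-ratio scaling 27 replication and 19 mitosis genes fell.

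Histone genes of the replicative kind moved less than the replication machinery. Only HTR13, an H3.1 gene, fell among 20 tested, with 50.004, 47.0 and 55.9 FPKM on day 8, against 111, 120.4 and 139.9 FPKM on day 4 (log2 change -1.26 ± 0.11). The median of the list was -0.47. H3.1 and H2A genes have near-identical copies, between which reads may be split. Inhibitors of the cycle and genes of the endocycle went both ways. Of 14 tested, KRP7 rose, with 11, 15.6 and 15 FPKM on day 8, against 5.75, 5.03 and 5.04 FPKM on day 4 (log2 change 1.23 ± 0.15), and DEL1, KRP5 and SMR4 fell. DEL1, a repressor of the endocycle, had 5.63, 4.60 and 4.13 FPKM on day 8, against 13.3, 11.3 and 13.4 FPKM on day 4 (log2 change -1.24 ± 0.14). SIM and SMR1, which promote endoreduplication, had log2 changes of 0.93 ± 0.12 and 0.90 ± 0.15, just under the 2-fold minimum. Both passed it under median-ratio scaling (1.12 and 1.07), SIM without day 8 replicate 2 (1.01) and SMR1 without day 8 replicate 3 (1.04). The fall of SMR4 was lost without day 8 replicate 2 (-0.83) or day 4 replicate 3 (-0.83) and under median-ratio scaling (-0.98).

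Ribosomal proteins fell by smaller amounts but in large number. Of 293 tested genes described as ribosomal proteins 97 fell and 5 rose, with a median of -0.85. Their promoters often hold the telo-box AAACCCTAA, which was found on either strand in 64 of 293 (21.8%), against 3.29% of all tested genes with a window. Of those that fell 23 of 97 held it (23.7%), close to the share in the whole family.

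Genes of the shoot meristem fell or were not called. Of 18 tested 6 fell and none rose, with a median of -0.78. KNAT1, a KNOX factor of the meristem and stem, had 32.0, 24.5 and 64.4 FPKM on day 8, against 189, 181 and 194 FPKM on day 4 (log2 change -2.31 ± 0.31, adjusted p = 0.000608). STM, which keeps meristem cells undifferentiated, had 36.9, 33.2 and 53.8 FPKM on day 8, against 116, 119.6 and 122 FPKM on day 4 (log2 change -1.54 ± 0.17). FAF2, a regulator of WUS, had 2.94, 1.71 and 2.82 FPKM on day 8, against 20.7, 22.5 and 19.5 FPKM on day 4 (log2 change -2.67 ± 0.17). These 3 fell well beyond the threshold. WUS itself had 2.44, 2.26 and 4.05 FPKM on day 8, against 6.72, 5.59 and 7.52 FPKM on day 4, a log2 change of -0.98 ± 0.20 that just missed the 2-fold minimum and passed it without day 8 replicate 3 (-1.18) or day 4 replicate 2 (-1.08), and the stem cell peptide gene CLV3 had 0.58, 0.785 and 1.65 FPKM on day 8, against 1.2, 2.19 and 2.55 FPKM on day 4 with overlapping libraries. Its receptor CLV1, KNAT2 and PNF fell by 1.02, 1.04 and 1.1 on the log2 scale, close to the threshold. All 3 were lost without day 8 replicate 2 (-0.89, -0.79 and -0.94), CLV1 and KNAT2 also without day 4 replicate 2 (-0.95 and -0.98), and CLV1 without day 8 replicate 1 (-0.96). KNAT6 had a log2 change of 0.02 ± 0.15.

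Organ boundary genes had a fall in 8 of 12, with none risen and a median of -1.06. CUC2 had 10.7, 8.27 and 20.0 FPKM on day 8, against 46.8, 44.1 and 42.4 FPKM on day 4 (log2 change -1.79 ± 0.27), CUC1 23.1, 18.7 and 30.9 FPKM on day 8, against 53.0, 49.4 and 50.6 FPKM on day 4 (log2 change -1.07 ± 0.17) and CUC3 19.1, 20.0 and 31.9 FPKM on day 8, against 47.7, 44.0 and 50.3 FPKM on day 4 (log2 change -1.01 ± 0.19). All 3 genes that set creases between organs were thus lower. CUC1 and CUC3 missed the minimum without day 8 replicate 2 (both -0.91), and CUC3 also without day 8 replicate 1 (-0.88), day 4 replicate 1 (-0.999) or day 4 replicate 3 (-0.96). LOB had 0.386, 0.235 and 1.12 FPKM on day 8, against 5.55, 5.78 and 6.32 FPKM on day 4 (log2 change -2.16 ± 0.22), JLO fell by 1.55 on the log2 scale, and the co-regulators BOP1 and BOP2 fell by 1.08 and 1.19 on the log2 scale, BOP1 missing the minimum without day 8 replicate 2 (-0.94). SUP, RBE and PTL of the same list were not called. SUP, which bounds stamens from carpels, had 3.62, 5.01 and 6.50 FPKM on day 8, against 4.37, 4.30 and 3.46 FPKM on day 4 (log2 change 0.24 ± 0.20), RBE, of the petal whorl, 4.01, 4.13 and 4.07 FPKM on day 8, against 2.73, 2.50 and 2.85 FPKM on day 4 (log2 change 0.46 ± 0.12), and PTL, between sepals, 9.72, 9.72 and 14.5 FPKM on day 8, against 9.50, 9.41 and 10.2 FPKM on day 4 (log2 change 0.18 ± 0.16).

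In organ polarity 8 of 16 fell and 1 rose, with a median of -0.82. The abaxial factors ARF4 and ARF3 had 21.6, 13.9 and 25.1 FPKM on day 8, against 56.5, 54.2 and 50.3 FPKM on day 4 (log2 change -1.40 ± 0.20) and 53.4, 42.3 and 68.4 FPKM on day 8, against 140.4, 141 and 145 FPKM on day 4 (log2 change -1.39 ± 0.16), AS1 fell by 1.12 on the log2 scale, and the adaxial factor PHB had 28.3, 22.4 and 35.6 FPKM on day 8, against 61.8, 57.3 and 56.3 FPKM on day 4 (log2 change -1.02 ± 0.16). Thus members of the lower and of the upper side fell, PHB missing the minimum without day 8 replicate 2 (-0.86) or day 4 replicate 1 (-0.98). KAN3 rose, with 15.5, 17.7 and 15.8 FPKM on day 8, against 7.23, 4.39 and 7.51 FPKM on day 4 (log2 change 1.26 ± 0.19), while KAN1 (log2 change 0.23 ± 0.16), YAB1 (log2 change -0.42 ± 0.21) and YAB3 (log2 change -0.06 ± 0.16) were not called. In these 3 lists a part of the falls lies near the 2-fold minimum, and the counts depend on the scale. Under median-ratio scaling 3 meristem, 4 boundary and 2 polarity genes fell, and without day 8 replicate 2 the counts were 3, 5 and 5. Day 8 replicate 3 had the highest value of its day in 5 of the 6, 8 of the 8 and 8 of the 8 fallen genes, against 1169 of all 2107 fallen genes.

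**Figure D4:**
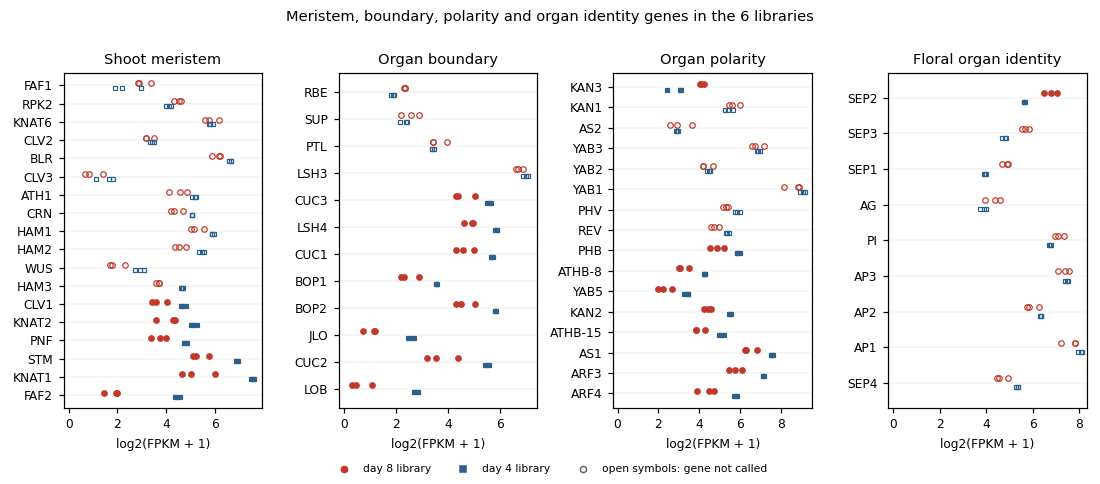
Each row is a gene of the shoot meristem (18 genes), organ boundary (12), organ polarity (16) or floral organ identity (9) list, and each symbol its log2(FPKM + 1) in 1 library, with day 8 as circles above day 4 as squares and open symbols for genes not called. Fallen genes lie at the bottom of the first 3 panels, and in the last panel only SEP2 is called, with day 8 to the right.

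Floral organ identity genes moved less, between -0.70 (SEP4) and 1.13 (SEP2) on the log2 scale. Of the 9 tested, 1 was called as risen (11.1%, against 12.6% of all genes). None of 9 fell, and SEP2, a cofactor of all whorls, rose, with 132, 87.7 and 109.97 FPKM on day 8, against 50.3, 47.9 and 48.8 FPKM on day 4 (log2 change 1.13 ± 0.14, adjusted p = 0.000497). Without day 8 replicate 1 its change was 0.99, under the minimum. SEP1 and SEP3 had log2 changes of 0.89 ± 0.10 and 0.90 ± 0.10, and all 3 day 8 libraries lay above those of day 4 for both. Under median-ratio scaling, 3 of the 9 were called as risen. The petal and stamen genes AP3 and PI had 166, 136 and 189.7 FPKM on day 8, against 183, 177 and 168 FPKM on day 4 (log2 change -0.12 ± 0.13) and 134, 125 and 161 FPKM on day 8, against 103, 107 and 110.4 FPKM on day 4 (log2 change 0.38 ± 0.11), and AG, of stamens and carpels, 19.6, 14.3 and 22.9 FPKM on day 8, against 13.8, 15.1 and 12.5 FPKM on day 4 (log2 change 0.41 ± 0.17). Among floral meristem identity genes LFY had 119, 102 and 96.3 FPKM on day 8, against 106, 105 and 105 FPKM on day 4 (log2 change 0.00 ± 0.10), and only CAL, of which the plants carry a mutant allele, fell, with 12.3, 7.31 and 11.6 FPKM on day 8, against 37.2, 40.6 and 35.4 FPKM on day 4 (log2 change -1.79 ± 0.18).

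Genes of the floral transition and of inflorescence identity gave 5 fallen and 1 risen of 16, and the other 10 were not called. SPL15 and SPL9, factors of the age pathway, had 6.13, 4.98 and 4.28 FPKM on day 8, against 34.5, 36.3 and 29.3 FPKM on day 4 (log2 change -2.49 ± 0.14) and 19.5, 17.64 and 19.7 FPKM on day 8, against 70.1, 66.8 and 71.0 FPKM on day 4 (log2 change -1.82 ± 0.08). AGL24 had 16.2, 13.5 and 25.1 FPKM on day 8, against 60.2, 64.5 and 59.4 FPKM on day 4 (log2 change -1.74 ± 0.20), and SPL3 and FD fell by 1.56 and 1.3 on the log2 scale. BRC1, a factor of bud dormancy, rose, with 65.2, 52.8 and 95.1 FPKM on day 8, against 17, 25.4 and 22.9 FPKM on day 4 (log2 change 1.63 ± 0.23).

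Gynoecium genes that were tested rose more often than they fell. Of 16 of them 5 rose and 1 fell. CRC, which is specific for carpels and nectaries, had 18.3, 20.195 and 33.0 FPKM on day 8, against 0.634, 1.74 and 0.577 FPKM on day 4 (log2 change 3.65 ± 0.29, adjusted p = 7.91e-05). The style factors NGA3 and NGA2 had 10.07, 11 and 12.2 FPKM on day 8, against 2.23, 1.98 and 2.14 FPKM on day 4 (log2 change 1.95 ± 0.13) and 12.3, 14.4 and 17.5 FPKM on day 8, against 3.51, 4.55 and 4.28 FPKM on day 4 (log2 change 1.61 ± 0.16). HEC1 and SHP1, of transmitting tract and valve margin, rose by 1.3 and 1.09 on the log2 scale. SHP1 had 2.05, 2.23 and 3.3 FPKM on day 8, against 0.525, 0.631 and 0.765 FPKM on day 4 and was under the minimum without day 8 replicate 3 (0.94). SHI fell, with 0.703, 0.962 and 2.15 FPKM on day 8, against 3.99, 4.18 and 4.47 FPKM on day 4 (log2 change -1.25 ± 0.24). The level of all 5 risen genes was highest in day 8 replicate 3 (278 of all 2376 risen genes), the library that was lowest for jasmonate genes. In the ovule list 2 of 13 rose, SHP1 and NZZ (15.4%, against 12.6% of all genes), and HLL fell (7.69%, against 11.2%). The carpel and ovule markers STK and INO were too low to be tested and lay lower on day 8. STK was listed at 0 in all day 8 libraries, against 0.127, 0.2 and 0.13 FPKM on day 4. INO had 0.0682, 0.00636 and 0.196 FPKM on day 8, against 0.594, 0.538 and 0.577 FPKM on day 4. NZZ, which starts spore-forming cells in anthers and ovules, had 1.94, 1.95 and 2.89 FPKM on day 8, against 0.0464, 0.0964 and 0 FPKM on day 4 (log2 change 1.63 ± 0.18).

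Stamen genes differed by list, with few calls for tapetum, pollen wall and mature pollen. Of 11 tested early anther genes NZZ and TGA9 rose, ROXY1 and BAM2 fell and 7 were not called. That is a larger share of calls than the 23.8% among all genes, in a short list. TGA9, which acts in anther lobes, had 3.77, 5.96 and 12.5 FPKM on day 8, against 0.839, 0.413 and 0.491 FPKM on day 4 (log2 change 2.29 ± 0.36), and ROXY1, a glutaredoxin of petals and anthers, 17.9, 25.9 and 12.0 FPKM on day 8, against 41.5, 47.4 and 59.8 FPKM on day 4 (log2 change -1.41 ± 0.26). The receptor kinase EMS1 and its ligand TPD1, which specify the tapetum, had log2 changes of 0.54 ± 0.15 and 0.81 ± 0.14, without a call. Of 32 genes of tapetum and pollen wall 13 are in the table and 8 were tested. The only call among them was the fall of TKPR2 to 0.435, 0.665 and 1.52 FPKM on day 8, against 2.58, 2.81 and 2.63 FPKM on day 4, which was lost without day 8 replicate 1 (-0.84), day 8 replicate 2 (-0.95) or day 4 replicate 2 (-0.99). Of the tapetum markers A9, AMS, DYT1, MS2 and CYP703A2 the table held AMS, which was under 1 FPKM in all 6 libraries. Of 20 genes of mature pollen 5 were tested and none was called. Of 27 tested meiosis genes 4 fell (14.8%, against 11.2% of all genes) and 1 rose. The meiotic cyclin SDS had 1.83, 1.29 and 2.50 FPKM on day 8, against 7.32, 7.36 and 6.83 FPKM on day 4 (log2 change -1.53 ± 0.18) and the crossover helicase RCK 1.0, 0.58 and 1.08 FPKM on day 8, against 3.5, 3.35 and 3.22 FPKM on day 4 (log2 change -1.22 ± 0.16). The other calls, falls of OSD1 and PS1 and a rise of PTD, lay close to the minimum and were each lost without at least 1 library. Without day 8 replicate 2 OSD1 and PS1 had -0.91 and -0.84, without day 4 replicates 1 or 2 PS1 had -0.99 and -0.98, and without day 8 replicate 3, day 4 replicate 1 or day 4 replicate 3 PTD had 0.97, 0.994 and 0.996. On day 8 DMC1, ASY1, SDS and ZYP1a together summed to 3.56 to 6.78 FPKM, against 13.4 to 14.2 FPKM on day 4.

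Petal and sepal growth had 4 risen and 3 fallen of 13. BPE, a bHLH factor that limits cell expansion in petals, rose, with 69.9, 50.2 and 35.1 FPKM on day 8, against 20.4, 19.0 and 21.9 FPKM on day 4 (log2 change 1.25 ± 0.22), and the jasmonate genes OPR3, DAD1 and MYB21 of that list rose as given above. PAN, which sets floral organ number, had 28.5, 21.5 and 32.1 FPKM on day 8, against 73.0, 68.4 and 63.7 FPKM on day 4 (log2 change -1.30 ± 0.15). ARF8, which acts with BPE, had 38.4, 27.7 and 43.3 FPKM on day 8, against 93.6, 90.6 and 81.3 FPKM on day 4 (log2 change -1.28 ± 0.16). BPE and its known partner moved apart.

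Regulators of organ growth were divided, 5 risen and 7 fallen of 33 (15.2% and 21.2%, against 12.6% and 11.2% of all genes). ARGOS and ARL, which raise organ size, had 13.5, 21.7 and 13.1 FPKM on day 8, against 0.859, 0.423 and 0.695 FPKM on day 4 (log2 change 3.34 ± 0.22) and 117, 205 and 134 FPKM on day 8, against 7.93, 13 and 8.97 FPKM on day 4 (log2 change 3.79 ± 0.24). TCP13, which restricts division, had 33.0, 47.5 and 40.7 FPKM on day 8, against 3.29, 2.78 and 2.55 FPKM on day 4 (log2 change 3.41 ± 0.15). These 3 were the largest rises of the list. The growth-regulating factors GRF4 and GRF6 had 8.45, 7.82 and 13.9 FPKM on day 8, against 46.0, 47.4 and 45.7 FPKM on day 4 (log2 change -2.14 ± 0.19) and 4.19, 3.07 and 5.74 FPKM on day 8, against 21.6, 18.0 and 23.7 FPKM on day 4 (log2 change -2.07 ± 0.20). Their coactivator GIF1 had 196, 158 and 367 FPKM on day 8, against 494, 496 and 477 FPKM on day 4 (log2 change -1.12 ± 0.28). CYP78A7, of a family that prolongs growth, fell by 1.47 on the log2 scale, and TCP17 by 1.62. GRF7 fell as well, the other GRF and GIF genes of the list were not called, and day 8 replicate 3 lay nearest to day 4 in GIF1 and GRF7. Without day 8 replicate 2 these 2 missed the minimum (-0.87 and -0.95).

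Wall-loosening genes showed the same division. Of 14 expansin genes 4 rose and 7 fell. EXLA1 had 44.8, 51.0 and 14.6 FPKM on day 8, against 1.34, 1.93 and 1.55 FPKM on day 4 (log2 change 3.68 ± 0.43) and EXPA10 278, 236 and 282 FPKM on day 8, against 86.5, 64.0 and 80.9 FPKM on day 4 (log2 change 1.77 ± 0.14), while EXPA15 had 90.0, 74.9 and 76.8 FPKM on day 8, against 359, 331 and 326 FPKM on day 4 (log2 change -2.06 ± 0.10), EXPA6 35.9, 35.2 and 39.7 FPKM on day 8, against 144, 133 and 147 FPKM on day 4 (log2 change -1.91 ± 0.09) and EXPB3 10.05, 6.31 and 15 FPKM on day 8, against 81.1, 72.0 and 85.7 FPKM on day 4 (log2 change -2.88 ± 0.26). The 3 expansins with the highest FPKM on day 4, EXPA15, EXPA4 and EXPA6, all fell. XTH enzymes, which cut and rejoin xyloglucan, rose more often, 9 of 19 with 3 fallen. XTH22, known as the touch-induced TCH4, had 159, 152 and 53.6 FPKM on day 8, against 6.16, 9.27 and 6.63 FPKM on day 4 (log2 change 3.74 ± 0.40), XTH24 79.0, 136 and 54.8 FPKM on day 8, against 7.27, 6.09 and 3.36 FPKM on day 4 (log2 change 3.74 ± 0.36) and XTH18 98.1, 108 and 17.3 FPKM on day 8, against 1.42, 0.538 and 0.405 FPKM on day 4 (log2 change 5.07 ± 0.65), whereas XTH9 had 129, 91.6 and 149 FPKM on day 8, against 280.3, 365 and 276 FPKM on day 4 (log2 change -1.33 ± 0.20). The rise of XTH19 was lost without day 8 replicate 1 (adjusted p = 0.0551), day 8 replicate 2 (0.0595) or day 4 replicate 3 (0.0515).

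No change was called in the 10 genes of primary wall cellulose, whose log2 changes ran between -0.96 and 0.96. Arabinogalactan proteins fell in 19 of 36, with 3 risen and a median of -1.12. AGP31 had 394, 259 and 504 FPKM on day 8, against 1407, 1365 and 1365 FPKM on day 4 (log2 change -1.89 ± 0.24). Of 42 pectin lyases and polygalacturonases 16 fell and 1 rose, and of 27 subtilases 10 fell and 3 rose. Aquaporins had 6 risen and 2 fallen of 21, with the plasma membrane channels PIP2A and PIP2B, looked at after the values were seen, at 872, 714 and 728 FPKM on day 8, against 43.9, 63.7 and 53.7 FPKM on day 4 (log2 change 3.83 ± 0.15) and 253, 188 and 106 FPKM on day 8, against 2.80, 3.96 and 3.85 FPKM on day 4 (log2 change 5.26 ± 0.30).

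Hormone genes other than those of jasmonate moved both ways. In auxin 7 of 40 rose and 10 fell (17.5% and 25%, against 12.6% and 11.2% of all genes). The risen ones are mostly early response genes: IAA2 had 161, 196 and 84.6 FPKM on day 8, against 16.3, 13.4 and 15.7 FPKM on day 4 (log2 change 3.12 ± 0.28), and the conjugating enzymes GH3.3 and GH3.5 had 171, 295 and 113 FPKM on day 8, against 40.2, 41.3 and 45.0 FPKM on day 4 (log2 change 2.06 ± 0.31) and 231, 162 and 186 FPKM on day 8, against 61.1, 53.3 and 70.3 FPKM on day 4 (log2 change 1.62 ± 0.16). The fallen ones hold synthesis and transport genes. YUC4, of auxin synthesis, had 1.56, 1.2 and 2.96 FPKM on day 8, against 9.34, 9.20 and 7.30 FPKM on day 4 (log2 change -1.77 ± 0.23), and the influx carriers LAX2 and AUX1 fell by 1.38 and 1.16 on the log2 scale. LAX3, of the same carrier family, rose by 1.21 on the log2 scale.

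In gibberellin 7 of 23 rose and 4 fell. The synthesis genes GA20OX1 and GA3OX3 had 0.0264, 0.187 and 0.305 FPKM on day 8, against 6.62, 7.13 and 7.17 FPKM on day 4 (log2 change -2.77 ± 0.15) and 0.832, 0.515 and 0.965 FPKM on day 8, against 5.86, 4.78 and 7.88 FPKM on day 4 (log2 change -2.0 ± 0.20). GA2OX6, which inactivates the hormone, had 13.1, 26.6 and 8.52 FPKM on day 8, against 0.383, 0.413 and 0.305 FPKM on day 4 (log2 change 3.5 ± 0.35). Transcripts of GA20OX1 and GA3OX3 were thus lower and those of GA2OX6 higher. Values of the other synthesis and removal genes of the list are not given here. The receptors GID1B and GID1C rose by 1.61 and 1.06 on the log2 scale (GID1C 0.99 without day 8 replicate 3 and 0.95 without day 4 replicate 1), and the DELLA repressor RGL3 had 35.4, 30.7 and 23.3 FPKM on day 8, against 6.31, 7.83 and 7.29 FPKM on day 4 (log2 change 1.90 ± 0.16). In cytokinin 4 of 25 rose and 6 fell (16% and 24%, against 12.6% and 11.2% of all genes). The degrading oxidases were divided, with CKX4 and CKX3 up by 2.44 and 1.69 on the log2 scale and CKX6 down (log2 change -1.72 ± 0.17). ARR9, ARR15 and ARR8, which are switched on by the hormone, fell by 2.15, 1.48 and 1.22 on the log2 scale. Of ARR4, ARR5, ARR6, ARR7 and ARR16, tested in the same list, none rose and most were not called. The activating enzyme LOG5 had 571, 517 and 562 FPKM on day 8, against 156, 138 and 219 FPKM on day 4 (log2 change 1.71 ± 0.17). The receptors AHK4 and AHK3 went opposite ways (log2 changes -1.11 ± 0.18 and 1.05 ± 0.12), AHK4 missing the minimum without day 8 replicate 2 (-0.95) and AHK3 without day 8 replicate 1 (0.96) or day 4 replicate 3 (0.99). Of 14 brassinosteroid genes only BEE2 was called, as fallen.

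Photosynthesis genes fell in 10 of 43 and rose in none, with a median of -0.65. RBCS1A had 1365, 1252 and 1752 FPKM on day 8, against 4498, 3114 and 9736 FPKM on day 4 (log2 change -1.84 ± 0.42), the light-harvesting gene LHCB1.3 987, 1059 and 1446 FPKM on day 8, against 2829.7, 4498 and 2829.7 FPKM on day 4 (log2 change -1.52 ± 0.27), and GAPB, of carbon fixation, 34.5, 35.9 and 32.2 FPKM on day 8, against 76.0, 69.1 and 79.0 FPKM on day 4 (log2 change -1.10 ± 0.09). Both gene families share reads between near copies. Among the day 4 libraries themselves RBCS1A ran between 3114 and 9736 FPKM. Epidermal genes fell in 6 of 19. GL2, of trichomes, had 1.06, 0.298 and 1.23 FPKM on day 8, against 12.9, 11.8 and 10.4 FPKM on day 4 (log2 change -2.81 ± 0.22). EGL3 had 24.5, 16.0 and 22.7 FPKM on day 8, against 68.3, 59.5 and 57.3 FPKM on day 4 (log2 change -1.52 ± 0.16). In cuticle and wax 3 of 37 rose and 6 fell (8.11% and 16.2%, against 12.6% and 11.2% of all genes). SHN1, an activator of cuticle synthesis, rose, with 11.5, 11.5 and 24.2 FPKM on day 8, against 2.11, 1.76 and 2.71 FPKM on day 4 (log2 change 2.32 ± 0.29), the wax reductase CER4 had 2.18, 0.256 and 1.23 FPKM on day 8, against 7.27, 5.74 and 9.29 FPKM on day 4 (log2 change -2.0 ± 0.34), and DCR fell by 1.14 on the log2 scale, a call lost without day 8 replicate 2 (-0.87) and under median-ratio scaling (-0.95). Of 17 genes of secondary wall and xylem VND7, a switch for vessel cells, rose, with 10.098, 8.20 and 6.28 FPKM on day 8, against 0.895, 1.01 and 1.02 FPKM on day 4 (log2 change 2.2 ± 0.18), and the arabinogalactan proteins FLA11 and FLA12 fell. Of 15 phloem genes none was called. In the circadian clock LUX rose, with 85.4, 76.0 and 71.1 FPKM on day 8, against 29.1, 35.0 and 28.1 FPKM on day 4 (log2 change 1.31 ± 0.11), and so did PRR9, which missed the minimum without day 8 replicate 1 (0.74) and the threshold without day 4 replicate 2 (adjusted p = 0.0556). The other 17 of 19 were not called, and the risen share was 10.5%, against 12.6% of all genes.

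Defining markers of floral tissue were present on both days. The 5 markers of floral tissue (AP3, PI, AG, SEP3 and LFY) summed to 423 to 526 FPKM on day 8 and 423 to 432 FPKM on day 4, with none called. None of the 4 root markers EXPA7, COBL9, RHD6 and CASP1, and none of the 3 seed markers OLEO1, CRA1 and SESA4, is in the table. The wider lists held PYK10, known from roots and seedlings, which rose, with 45.9, 25.7 and 29.4 FPKM on day 8, against 3.58, 2.54 and 1.86 FPKM on day 4 (log2 change 3.23 ± 0.25), and SESA1, a seed storage protein with 2.82, 4.76 and 0.247 FPKM on day 8, against 0, 0.175 and 0 FPKM on day 4, whose call was lost in each of 5 fits that left out 1 library (adjusted p 0.0684 to 0.0978). Markers of phloem summed to 41.2 to 47.8 FPKM on day 8 and 39.6 to 43.1 FPKM on day 4, and those of xylem to 23.2 to 40.2 FPKM on day 8 and 19.8 to 25.4 FPKM on day 4. The part of a changed makeup of the tissue in the gene groups above was not tested.

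The question whether the last interval differs from the first was put to the 11 libraries as the difference of 2 changes, day 8 minus day 4 less day 2 minus day 0, which share no library and span 4 and 2 days. It was called for 4402 genes (23.3%), 2268 higher in the last interval (12%) and 2134 lower (11.3%). All 16 risen synthesis genes and 13 of the response genes of jasmonate were higher in the last interval, as were 11 genes of senescence, and 26 genes of replication and 27 of mitosis were lower. JAZ8 had a difference of 5.50 ± 0.51 (adjusted p = 1.67e-05) and PCNA1 one of -2.91 ± 0.16 (adjusted p = 1.59e-06). MCM2 averaged 40.1, 40.2, 36.5 and 9.80 FPKM on days 0, 2, 4 and 8, so that its level hardly moved before day 4. The repressor JAZ1 averaged 9.57, 46.7, 25.9 and 719.6 FPKM on these days, with a first and smaller maximum on day 2. The petal and stamen gene AP3 averaged 0.122, 37.7, 176 and 164 FPKM, and its difference was -5.23 ± 0.17 (adjusted p = 7e-08), with the highest mean on day 4. Of 9 organ identity genes 4 were lower in the last interval by this test and none higher.

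**Figure D5:**
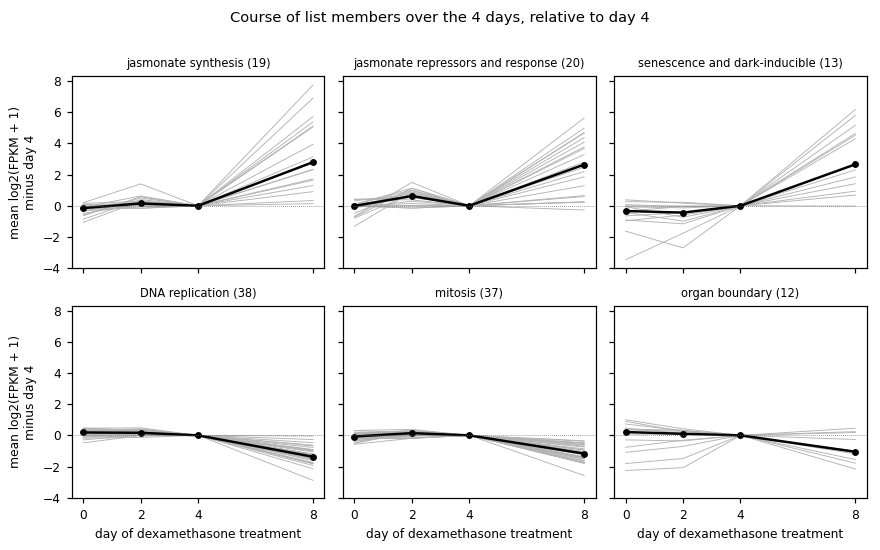
Mean log2(FPKM + 1) of each list member on days 0, 2, 4 and 8, less its day 4 mean (grey lines, 1 per gene, with the number of genes in each title), and the median over the members (black), for 6 lists. On day 8 the medians lie at 2.80 and 2.64 for the jasmonate lists and 2.66 for senescence, against -1.37, -1.17 and -1.06 for DNA replication, mitosis and organ boundary.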

How the data were processed

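RNA was sequenced from pools of inflorescences on days 0, 2, 4 and 8 of dexamethasone treatment. The authors mapped the reads to TAIR10 with STAR and estimated expression with RSEM 1.2.22, and the deposited values are FPKM, 1 column per library, with the columns brought to a common distribution (totals 734615 to 734624, sorted columns differing by a median of 0.0702%). Depth is therefore unknown, and no count test or counting interval could be made. The deposited p-value and FDR columns hold the authors' analysis of variance across the 4 days and were not used, and neither were their daily means.

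Genes with at least 1 FPKM in 2 of the 6 libraries of days 8 and 4 were fitted as log2(FPKM + 1) in limma 3.58.1 (R 4.3.3), with a variance trend, two-sided moderated tests and Benjamini-Hochberg adjustment over all genes tested. A call needed an adjusted p under 0.05 and a 2-fold change in FPKM + 1. The contrast of the last with the first interval used all 11 libraries. The code was tested on simulated data. Gene groups are 41 lists from general knowledge and 33 families found by annotated description. Members and lists were chosen with earlier results of these data known. The identifiers of 27 list entries were corrected, 2 of them after values were seen, and the glutathione S-transferase family and the wording that defines the MADS-box, B3 and beta-glucosidase families were set after values were seen. Genes named are the 15 largest rises and 15 largest falls with non-overlapping libraries and at least 5 FPKM on the higher day, up to 6 called members of a list with the largest change, and its known main regulators. Other genes were chosen after their values were seen. Gene names, positions and promoter sequence came from the table and from RefSeq's TAIR10.1. Alternatives changed the filter, the added FPKM, the scaling, the libraries, weights, trend, replicate block and fold minimum.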

Additional observations from a re-analysis of the deposited data

Results flagged for a closer look

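The change of the last interval (day 8 minus day 4) differed from that of the first (day 2 minus day 0) for 4402 genes in the limma contrast over all 11 libraries. Among the genes with larger differences than those given next were RAP2.6 (8.61), DIN11 (7.46), JRG21 (7.38) and NATA1 (7.17), which rose in the last interval. Of the genes called both in this contrast and between days 8 and 4, 30 had an opposite change of at least 1 on the log2 scale in the first interval, which was not itself tested, and of these 19 rose and 11 fell in the last interval. The following 5 have the largest difference among those 30, so that the opposite signs were part of how they were chosen. DIN1, a dark-inducible gene, averaged 1.77, 0.315, 14.8 and 548 FPKM on days 0, 2, 4 and 8, and its intervals differed by 6.87 ± 1.21 (adjusted p = 0.000822). The DUF506 genes AT2G20670 and AT4G32480 averaged 5.28, 0.75, 3.83 and 119 FPKM and 6.29, 1.34, 4.13 and 133 FPKM on these days, with differences of 6.64 ± 0.84 and 6.48 ± 0.77. ERD5, a proline dehydrogenase, averaged 34.1, 14.4, 44.3 and 1105 FPKM, with a difference of 5.70 ± 0.88, and AT3G15450, annotated as aluminium-induced, 268, 123, 492 and 6244 FPKM, with a difference of 5.27 ± 0.86. On day 4 replicate 2 had the highest value of the 3 libraries in all 5 genes.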

How the results depend on the processing

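Without the 2-fold minimum 12170 genes were called, 4667 risen and 7503 fallen, with 518 genes of the lists in place of 288 and 10165 genes in the contrast of the 2 intervals. Leaving out 1 library at a time gave 4091 to 5005 calls (2177 to 2563 risen, 1914 to 2442 fallen), 258 to 310 genes of the lists and 4036 to 4920 genes in the contrast of intervals. Median-ratio scaling gave 2738 risen and 1504 fallen, sharing 3876 genes with the 4483. Adding 0.1 FPKM gave 2628 and 2713, and rises were 49.2% of the calls. The deviations of same-numbered libraries of the 2 days had r = 0.14, -0.11 and 0.00, and those of differently numbered ones -0.19 to 0.17. With 3 libraries a day these values cannot decide whether same-numbered libraries were paired. A replicate block gave 2388 risen and 2116 fallen genes, 288 list genes and 4554 in the contrast of intervals. Of 283 called genes named, 259 kept the call under median-ratio scaling, 261 to 279 when 1 library was left out, 282 when 1e-06 FPKM was added and 266 of 266 tested with a 5 FPKM filter, and none changed direction in these fits. Most losses are of genes near the 2-fold minimum, among them AS1 (-0.93), KN (-0.97), GAPB (-0.91), AUX1 (-0.97) and CUC1 (-0.88) under median-ratio scaling. Jasmonate synthesis kept 16 risen genes under that scaling, jasmonate response 14 and DNA replication 27 fallen of 29. Depth is unknown, so calls among genes near 1 FPKM carry an error that cannot be given.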

Other observations

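Families outside the groups above also moved between day 8 and day 4, and the genes named here were picked after their values were seen. Of 23 tested beta-glucosidases 11 rose and 3 fell, against 12.6% and 11.2% of all genes. BGLU45 and BGLU46, which act on lignin precursor glucosides, had 15.5, 25.9 and 17.9 FPKM on day 8, against 3.81, 4.04 and 2.22 FPKM on day 4 (log2 change 2.25 ± 0.24) and 32.2, 55.1 and 24.4 FPKM on day 8, against 3.2, 4.01 and 3.59 FPKM on day 4 (log2 change 2.98 ± 0.27). BGLU18, which frees abscisic acid from its glucose ester, had 853, 602 and 768 FPKM on day 8, against 269, 174 and 64.1 FPKM on day 4 (log2 change 2.34 ± 0.47), the day 4 libraries differing more than those of day 8.

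Leucine-rich repeat receptor kinases fell in 28 of 121 and rose in 16 (23.1% and 13.2%, against 11.2% and 12.6% of all genes). The risen ones held the flagellin receptor FLS2, with 27.7, 49.5 and 32.1 FPKM on day 8, against 6.09, 7.63 and 5.76 FPKM on day 4 (log2 change 2.29 ± 0.22), and the kinase of immune signalling SOBIR1, with 101.2, 91.9 and 48.1 FPKM on day 8, against 10.2, 11.5 and 10.09 FPKM on day 4 (log2 change 2.74 ± 0.26). In the B3 family of transcription factors 18 of 45 fell and 8 rose. TEM1, a repressor of flowering, had 102, 214 and 129 FPKM on day 8, against 12.2, 16.6 and 14.7 FPKM on day 4 (log2 change 3.21 ± 0.26), and the B3 gene AT2G24700 had 22, 17.2 and 21.6 FPKM on day 8, against 106, 94.2 and 91.3 FPKM on day 4 (log2 change -2.21 ± 0.12).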
